A study of Mus musculus with 6 samples.

Results

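The genes described here are 10 regulators that shorten the life of messenger RNA and help to keep resting lymphocytes at rest: Btg1, Btg2, Tob1, Tob2, Zfp36, Zfp36l1, Zfp36l2, Zc3h12a, Rc3h1 and Rc3h2. They were chosen by name, and all 10 were found among the 52997 gene symbols of the count table and among the 11681 genes with enough counts to test. RNA was sequenced from lymph node CD4+ T cells, which the series title calls naive, of 3 infant mice, 10 days old, and of 3 adults at 7 weeks of age. All 6 animals carried the Foxp3-GFP reporter, which marks regulatory T cells, on the C57BL/6 background, and none had a treatment in the labels. Each library held 1000 sorted cells from the pooled nodes of 1 mouse. The sample titles call these cells Tconv, for conventional T cells, and the gate itself is not described in the labels used here. The question was whether RNA of these decay factors differs between infant and adult cells.

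Most cytoplasmic mRNA decay begins with shortening of the poly(A) tail by the CCR4-NOT deadenylase, followed by removal of the cap and digestion by exonucleases. The proteins described here choose which mRNAs are degraded or how fast. BTG and TOB proteins bind the catalytic deadenylase subunits and bring them to mRNA broadly, Zfp36 proteins recognise AU-rich elements, and Regnase-1 (Zc3h12a) and the Roquins (Rc3h1 and Rc3h2) recognise stem-loops. In T cells several of them are known to hold back proliferation and the production of cytokines.

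Btg2 was the member that passed the test. Its RNA was lower in infant cells, and it was also the most abundant member per exon length at both ages. To show where its transcription starts, the 250 bases upstream of its start site are printed beside those of Zfp36. Like Btg2, Zfp36 has the character of an immediate early gene, a class that is transcribed within minutes of a stimulus. Both sequences come from RefSeq on build GRCm38.p6, minus strand, written 5′ to 3′, at chr1:134079156-134079405 for Btg2 and chr7:28379229-28379478 for Zfp36. Capitals mark matches on either strand to TGACGTCA (the cyclic AMP response element, CRE), GGGCGG (the GC box), CCAAT (the site of NF-Y), CACGTG (the E-box), GTAAACA (a site of forkhead factors), TATAAA (the TATA box) or the CArG box of serum response factor.
Btg2: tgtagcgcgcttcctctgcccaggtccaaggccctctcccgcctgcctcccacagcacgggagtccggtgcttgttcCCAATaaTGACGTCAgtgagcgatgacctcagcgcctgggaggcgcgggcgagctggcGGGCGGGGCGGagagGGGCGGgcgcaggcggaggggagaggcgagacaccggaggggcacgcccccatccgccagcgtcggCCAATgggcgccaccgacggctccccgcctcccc
Zfp36: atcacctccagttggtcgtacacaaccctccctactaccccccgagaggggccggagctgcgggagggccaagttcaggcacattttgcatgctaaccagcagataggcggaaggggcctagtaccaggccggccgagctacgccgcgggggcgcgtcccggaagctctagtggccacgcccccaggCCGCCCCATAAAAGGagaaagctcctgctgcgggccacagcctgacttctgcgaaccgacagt

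The CRE letters in the Btg2 window began at position -166 from the start site, and they were present in 1.55% of 32851 upstream windows of the same length. The CArG box in the Zfp36 window began at position -58 and overlapped a GC box on the other strand, and 1.47% of the windows held one. Of the 9 members with an entry in the table, 1 held the CRE letters (Btg2), 1 held a CArG box (Zfp36) and 7 held a GC box, which 32.7% of all windows held. These matches describe letters and say nothing of binding. The start sites are those of RefSeq, and the GENCODE bounds of Zfp36 used for its position reach further upstream, so that its window lies within them.

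The libraries had 3421253 to 4887371 counts, so that 3 counts, the floor used here, equal 0.628 to 0.852 CPM (counts scaled to library size with TMM factors), for counting error only. T cell genes were present in every library, with 8 of 8 CD4 T cell markers detected and a summed level of 6617 to 7666 CPM in adult and 7064 to 7487 in infant libraries. Cd8a reached at most 1.93 CPM. Among marker lists of other cells, 5 B cell markers summed to at most 15.1 CPM in adult and 8.45 in infant libraries. The 6 myeloid markers summed to 5.98 to 29.8 CPM in adult and 15.9 to 19.3 in infant libraries, and 4 erythroid markers to at most 0.568 and 0.209. The 4 regulatory T cell markers gave 12.6 to 32.7 and 21.5 to 26.8 CPM, and 5 markers of memory or activated T cells 48.1 to 69.1 and 51.8 to 74.1. The list of 5 stromal and endothelial markers summed to 324 to 395 CPM, nearly all of it Pecam1, while Cd8b1, the other CD8 marker, was at 30.7 to 40.2 CPM. The 4 NK and innate lymphoid markers summed to 16.2 to 29.3 CPM in adult and 7.54 to 10.2 in infant libraries, with Ncr1 at 0 in all 6. Most of each sum was Klrd1 (13.2 to 24.2 CPM in adult and 6.91 to 8.71 in infant libraries), while Ncr1, Klrb1c and Eomes were too low to test. The 5 markers of cycling cells summed to 7.03 to 25.9 CPM in adult and 64.5 to 139 in infant libraries, so that the ages did not overlap in either of these lists. Adult replicate 2 stood apart by its counts over genes that are silent elsewhere, at 1.85 counts per kb of exon over 10988 genes that were too low to test, against 0.186 to 0.349 in the other 5 libraries. A density of that size corresponds to 0.400% of the Btg2 counts of that library and to 15.7% of its Zc3h12a counts, the lowest and highest share among the 10 genes.

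The test was edgeR's quasi-likelihood F test, with p-values adjusted over all tested genes by the Benjamini-Hochberg method and a threshold of 0.05. Of the 10 members, 0 rose, 1 fell and 9 did not pass. Of all tested genes 3.64% passed, 1.52% higher and 2.11% lower in infant cells. At an unadjusted p under 0.05 there were 3 members, Btg2, Tob2 and Zc3h12a, each with a negative fold change, where 17.3% of all tested genes reached that level in either direction. The 3 infant values lay wholly below the 3 adult values for 4 members and wholly above them for 0, against 11.6% and 11.2% of all tested genes. The median log2 fold change (infant over adult) of the 10 genes was −0.27 and that of all tested genes −0.0017. With 10 genes these counts describe the group and do not set it apart from other genes.

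**Figure D1:**
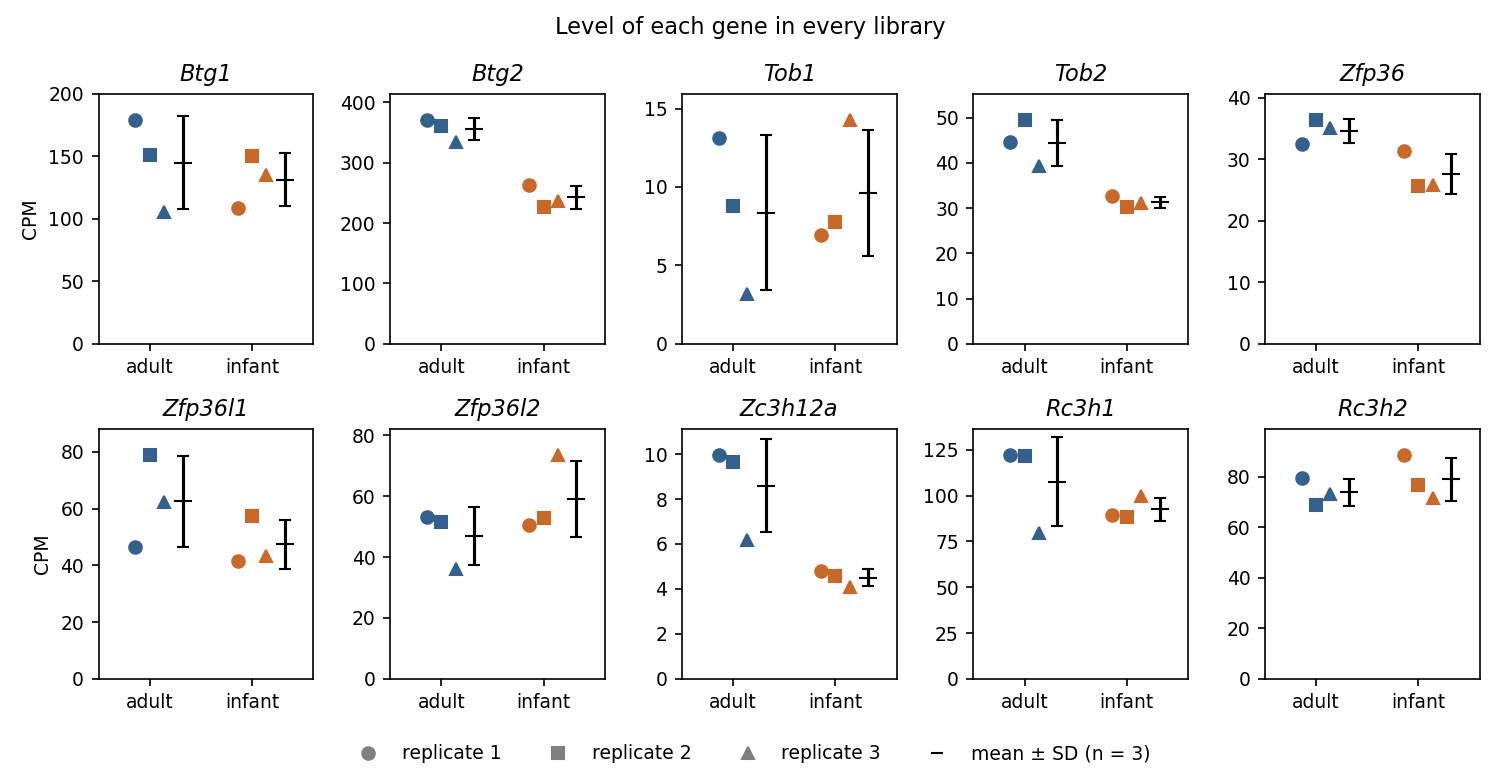
Level of each of the 10 genes in CPM (vertical axes from 0, scaled separately per gene) in the 3 adult and 3 infant libraries, with marker shapes for the replicate numbers and black bars for mean ± SD (n = 3). Infant points lie below every adult point for Btg2, Tob2, Zfp36 and Zc3h12a, and adult replicate 3 is the lowest adult library for 7 of the 10 genes.

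Btg2, an antiproliferative adaptor of the deadenylase that is known to be induced by p53 and by growth stimuli, lies on chromosome 1 (134075170 to 134079120, mm10, minus strand). Its level was 370.2, 361 and 335 CPM in adult replicates 1 to 3 and 264, 227 and 237 CPM in infant replicates 1 to 3. The lowest adult library stood clearly above the highest infant library. Its RNA was 1.46-fold lower in infant cells (355 ± 18.3 CPM in adult and 243 ± 18.9 in infant libraries, mean ± SD, n = 3; log2 fold change −0.55 ± 0.11, SE, 95% interval −0.78 to −0.32, adjusted p = 0.00921 by edgeR). Without adult replicate 2, the library that stood apart, it was −0.54 with an adjusted p of 0.0107 in edgeR. The call was lost without adult replicate 1 (adjusted p = 0.0692 by edgeR), without infant replicate 2 (0.105), without infant replicate 3 (0.0630) and when genes of low count were not filtered (0.0728), while the log2 fold change stayed between −0.61 and −0.50. In bulk samples a lower level in each cell and fewer cells that express the gene cannot be told apart. The part of the cycling cells and of the NK-type transcripts, mostly Klrd1, in this difference was not tested.

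Btg1, the closest relative of Btg2 and likewise a partner of the deadenylase in resting lymphocytes, lies on chromosome 10 (96617006 to 96622809). It stood at 179, 151 and 105 CPM in adult replicates 1 to 3 and at 108, 149.95 and 135 CPM in infant replicates 1 to 3. The groups overlapped fully, with the adult libraries more spread out than the infant ones. Its log2 fold change was −0.14 ± 0.18 (95% interval −0.52 to 0.23, adjusted p = 0.747 by edgeR), and without adult replicate 1 it was 0.042.

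Tob1 and Tob2 carry the same deadenylase-binding domain and in addition contact the poly(A)-binding protein, and Tob1 is known as a brake on T cell proliferation. Tob2 (chromosome 15, 81848272 to 81858796) stood at 44.6, 49.4 and 39.3 CPM in adult replicates 1 to 3 and at 32.7, 30.2 and 31.2 CPM in infant replicates 1 to 3. Its groups did not overlap, with a log2 fold change of −0.50 ± 0.18 (95% interval −0.88 to −0.12), but the edgeR adjusted p was 0.148. Tob1 (chromosome 11, 94211454 to 94215495) had few counts, with 13.1, 8.81 and 3.21 CPM in adult replicates 1 to 3 and 6.91, 7.74 and 14.2 CPM in infant replicates 1 to 3, from 15 to 59 counts in each library. The highest Tob1 value was an infant library and the lowest an adult one, with wide overlap. Its log2 fold change of 0.21 ± 0.47 (95% interval −0.80 to 1.21, adjusted p = 0.877 by edgeR) became −0.20 without adult replicate 3 and −0.19 without infant replicate 3.

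The Zfp36 family of zinc-finger proteins binds AU-rich elements and recruits the deadenylase. Zfp36 (tristetraprolin, chromosome 7, 28376784 to 28380253), the founding member and known for its control of Tnf mRNA, stood at 32.5, 36.4 and 35.0 CPM in adult replicates 1 to 3 and at 31.4, 25.6 and 25.8 CPM in infant replicates 1 to 3. The groups were separate, but infant replicate 1 came close to adult replicate 1. The log2 fold change was −0.32 ± 0.19 (95% interval −0.73 to 0.080, adjusted p = 0.428 by edgeR).

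Zfp36l1 (chromosome 12, 80107754 to 80113013) stood at 46.5, 78.7 and 62.2 CPM in adult replicates 1 to 3 and at 41.7, 57.3 and 43.2 CPM in infant replicates 1 to 3 (log2 fold change −0.40 ± 0.20, adjusted p = 0.340 by edgeR). Zfp36l2 (chromosome 17, 84183931 to 84187947), which is known with Zfp36l1 for keeping developing thymocytes quiescent, stood at 53.3, 51.4 and 36.1 CPM in adult replicates 1 to 3 and at 50.7, 53.0 and 73.4 CPM in infant replicates 1 to 3 (0.33 ± 0.20, adjusted p = 0.434). The values of both genes overlapped between the ages, and their estimates had opposite signs. Within each library the log2 ratio of Zfp36l1 to Zfp36l2 averaged 0.40 ± 0.52 in adult and −0.31 ± 0.44 in infant libraries (SD, n = 3), a difference of −0.70 with overlapping libraries (exact permutation test, two-sided p = 0.2, where 0.1 is the smallest that 3 against 3 allows). For Zfp36 to Zfp36l2 the difference was −0.65, also with an exact permutation p = 0.2. The other pairs, Btg1 to Btg2, Tob1 to Tob2 and Rc3h1 to Rc3h2, had differences of 0.43, 0.81 and −0.29 with an exact permutation p = 0.3 each, and all 5 ratios had a Benjamini-Hochberg adjusted p of 0.3. The libraries overlapped in each of the 5 ratios.

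Zc3h12a encodes Regnase-1, an endoribonuclease that cleaves stem-loops in inflammatory mRNAs and is itself cut by the protease Malt1 after T cell receptor stimulation. The gene (chromosome 4, 125118423 to 125127840) stood at 9.94, 9.66 and 6.20 CPM in adult replicates 1 to 3 and at 4.82, 4.60 and 4.11 CPM in infant replicates 1 to 3, from 29 to 41 and from 17 to 23 counts. All infant values lay below all adult values, and the estimate was the largest of the 10 genes in size. The log2 fold change was −0.92 ± 0.40 (95% interval −1.79 to −0.055), and the edgeR adjusted p of 0.257 did not pass. Among the 10 genes its interval was second in width to that of Tob1.

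The Roquin genes Rc3h1 (chromosome 1, 160906418 to 160974978) and Rc3h2 (chromosome 2, 37370069 to 37422903) encode RNA-binding ubiquitin ligases that bring the deadenylase to stem-loops in mRNAs such as that of Icos. Rc3h1 stood at 122, 122 and 79.5 CPM in adult replicates 1 to 3 and at 89.4, 88.3 and 99.7 CPM in infant replicates 1 to 3. Adult replicates 1 and 2 stood above every infant library and adult replicate 3 below every one. Rc3h1 had a log2 fold change of −0.22 ± 0.16 (adjusted p = 0.549 by edgeR), which ran from −0.40 without adult replicate 3 to −0.11 without adult replicate 1. Rc3h2 stood at 79.3, 68.8 and 73.3 CPM in adult replicates 1 to 3 and at 88.4, 76.7 and 71.5 CPM in infant replicates 1 to 3, with a log2 fold change of 0.096 ± 0.14 (95% interval −0.20 to 0.39, adjusted p = 0.794). Of the 10 intervals this was the one that bounded the change most tightly around 0.

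**Figure D2:**
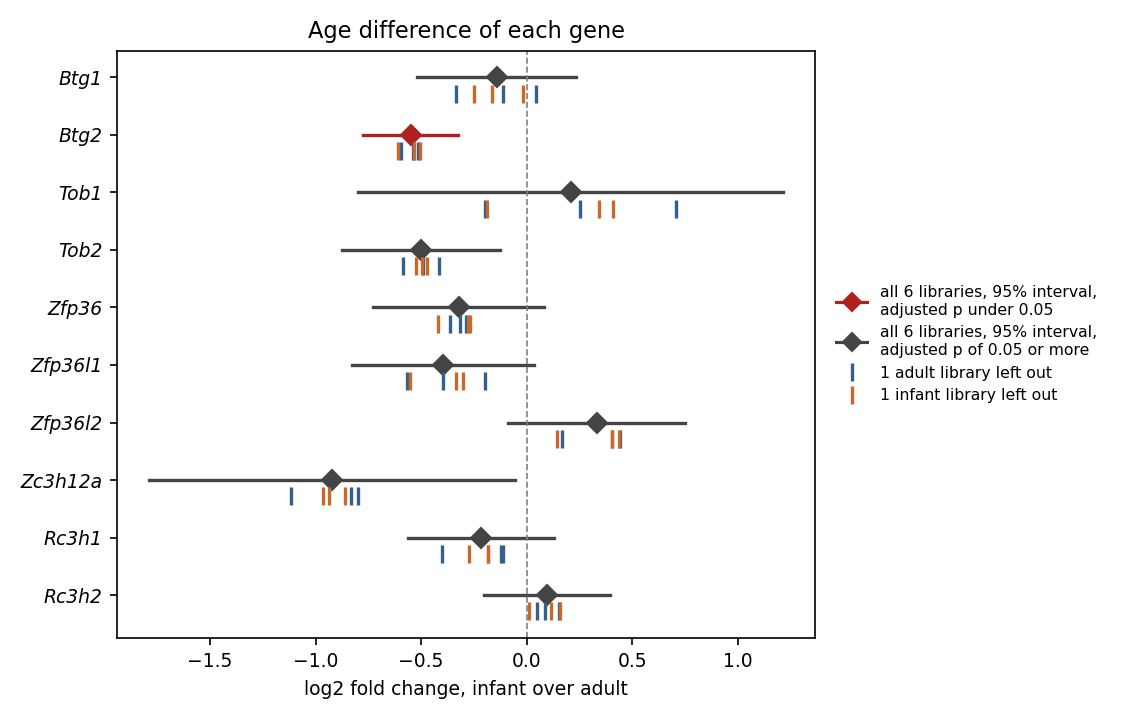
Log2 fold change of each gene (horizontal axis, infant over adult) with its 95% interval from the edgeR fit of all 6 libraries, and below each interval the 6 estimates obtained with 1 library left out. Btg2 stays between −0.61 and −0.50, whereas the estimates of Btg1 and Tob1 fall on both sides of 0.

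Adult replicate 3 was the lowest adult library for 7 of the 10 genes and the highest for 0, while over all tested genes it was the lowest for 32.1%. Adult replicate 1 was the highest for 7 of the 10, against 30.9% of all tested genes. For Btg2 the spread within the adult group was small beside the difference between the ages. The library protocol in the labels does not mark strand, so that reads of a member and of a gene on the opposite strand cannot be told apart. Zfp36l1 shares 1672 of its 2990 exon bases with the opposite-strand RNA Gm26669, which had 3 to 10 counts in each library. How reads over shared bases were assigned is not known here. The level of Zfp36l1 per exon length, given below, may therefore be off. Tob2, Zfp36 and Zfp36l2 share 289, 125 and 105 exon bases with opposite-strand genes, and Btg1, Btg2, Tob1, Zc3h12a and both Roquin genes share 0.

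Levels of different genes were set side by side as CPM per kb of exon. The length was the union of exons over all annotated transcripts, 2743 bases in 1 transcript for Btg2 and 19624 in 10 for Rc3h2. The order and shares below therefore depend on the annotation. Btg2 came first at both ages, at 130 ± 6.69 in adult and 88.4 ± 6.91 in infant libraries, above 97.5% and 95.8% of 11435 tested genes with a known exon length. Its lowest library at each age (122 and 82.9 CPM per kb) stood well above the highest of Btg1, the next gene (33.9 and 28.4). Btg2 alone made up 54.7% to 60.0% of the summed level of the 10 genes in adult and 47.6% to 54.6% in infant libraries. In adult cells the order went on with Btg1 (27.5), Zfp36l1 (20.9), Zfp36l2 (13.3), Zfp36 (9.98), Rc3h1 (9.52), Tob2 (6.67), Rc3h2 (3.76), Tob1 (3.66) and Zc3h12a (2.98 CPM per kb). Neighbours in that order overlapped except Btg2 and Btg1, Zfp36l1 and Zfp36l2, and Tob2 and Rc3h2. In infant cells Zfp36l2 (16.7) stood before Zfp36l1 (15.9), Rc3h1 (8.18) before Zfp36 (7.96) and Tob1 (4.21) before Rc3h2 (4.02), and these exchanges were between genes whose infant values overlapped. Zc3h12a was the last at both ages, with 2.15 to 3.45 in adult and 1.42 to 1.67 CPM per kb in infant libraries.

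**Figure D3:**
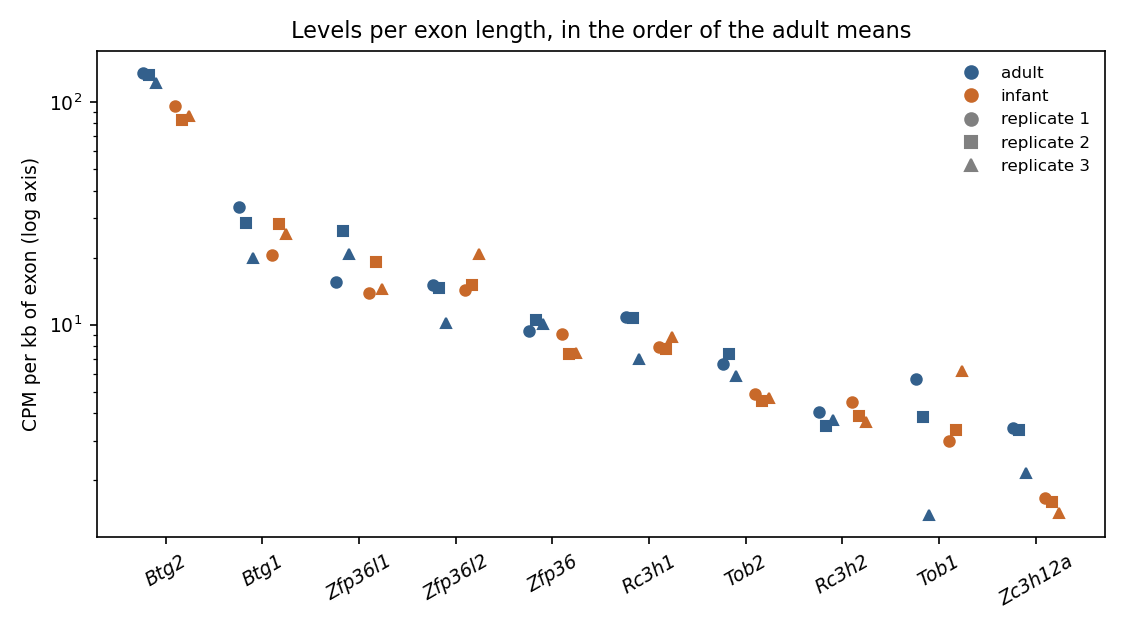
Level of each gene per exon length (CPM per kb of exon, log axis) in every library, with adult libraries in blue, infant libraries in orange and genes in the order of their adult means. Btg2 stands above all other members in every library, and Zc3h12a has the lowest infant values.

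The remaining relatives of these families were looked at as well. Zc3h12d, the lymphoid relative of Regnase-1, fell from an adult mean of 77.7 ± 7.97 CPM to an infant mean of 45.5 ± 9.65 (log2 fold change −0.77 ± 0.17, adjusted p = 0.0234 by edgeR). The call was lost without adult replicate 1 or 2 or infant replicate 2 or 3 (highest adjusted p 0.120, edgeR). Zc3h12b (−0.53 ± 0.33) and the related nuclease N4bp1 (−0.42 ± 0.27) did not pass. In the Regnase and Roquin family 1 of 6 tested genes fell and 0 rose, with a median of −0.48. The shares over all tested genes were 2.11% and 1.52%. Btg3, Btg4, Zfp36l3 and Zc3h12c were too low to test, with at most 11 counts in a library.

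Calls among genes of RNA decay pathways and among other regulators of mRNA stability were counted beside the 3.64% of all tested genes that passed. Of 19 genes of the CCR4-NOT and PAN2-PAN3 deadenylases and poly(A)-binding proteins 0 passed, with a median log2 fold change of 0.072. The scaffold Cnot1 averaged 269 ± 20.8 CPM in adults and 323 ± 22.5 in infants (0.26 ± 0.11, adjusted p = 0.216 by edgeR), and the poly(A)-binding protein Pabpc1 753 ± 39.7 and 730.0 ± 72.9 (−0.044 ± 0.10). Infant values lay above all adult values for 6 of the 19 and below for 1, against 11.2% and 11.6% of all tested genes. Of 19 genes of decapping and 5′ to 3′ decay 1 rose, the nuclear exonuclease Xrn2 (266 ± 8.20 to 357 ± 26.8 CPM, 0.42 ± 0.10, adjusted p = 0.0372), and the median was 0.014. The call of Xrn2 held when adult replicate 2 was left out but not when any of the other 5 libraries was, nor without the filter or with a replicate block (highest adjusted p 0.214, edgeR). Of 14 exosome and SKI genes, 10 genes of nonsense-mediated decay and 14 other regulators of stability 0 passed, with medians of 0.028, 0.054 and −0.085. Among the most abundant of these, Exosc10, a catalytic exosome subunit, had a log2 fold change of −0.030 ± 0.11, the SKI helicase Skiv2l 0.15 ± 0.13, the kinase Smg1 −0.15 ± 0.12 and its partner in nonsense-mediated decay Smg5 0.035 ± 0.19. Arid5a, which protects stem-loop mRNAs from Regnase-1, was at −0.17 ± 0.13 and Ythdf2, a reader of methylated adenosine, at 0.13 ± 0.13.

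Among 18 other genes of T cell quiescence 1 rose, 1 fell and 16 did not pass (median −0.12). Infant values lay below all adult values for 6 of the 18 and above for 1, against 11.6% and 11.2% of all tested genes. These counts were not tested. Of all tested genes 1.52% rose and 2.11% fell. Klf6, a zinc-finger transcription factor, fell from 152 ± 17.4 to 77.5 ± 4.64 CPM (log2 fold change −0.97 ± 0.13, adjusted p = 0.000758 by edgeR) and passed under all 14 alternatives. Txnip, an inhibitor of glucose uptake and thioredoxin, rose from 425 ± 131 to 752 ± 102 CPM (0.82 ± 0.18, adjusted p = 0.0194) but lost the call with DESeq2 (adjusted p = 0.0592) and without adult replicate 3 or any infant library (highest adjusted p 0.116, edgeR). The count of 2 was 5 without adult replicate 2, 1 without adult replicate 3 or any infant library, and 4 with library totals as the scale.

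Known target mRNAs with AU-rich elements or stem-loops went both ways, with 1 of 18 up and 2 down (median −0.010). Which of the 10 genes, if any, acts on each of them was not looked at. Over all tested genes 1.52% passed up and 2.11% down. Nfkbia, the NF-kB inhibitor, fell from 465 ± 38.9 to 314 ± 12.4 CPM (log2 fold change −0.57 ± 0.10, adjusted p = 0.00669 by edgeR), and Nfkbiz, a nuclear relative of it and a target of Regnase-1, from 65.2 ± 4.02 to 39.6 ± 3.55 (−0.72 ± 0.15, adjusted p = 0.0183). Cd69, an early activation marker, rose from 213 ± 47.0 to 325 ± 20.3 CPM (0.61 ± 0.14, adjusted p = 0.0255). The call of Nfkbia did not hold when adult replicate 1, infant replicate 2 or infant replicate 3 was left out (highest adjusted p 0.0668, edgeR), that of Nfkbiz when adult replicate 1 or 3 or infant replicate 1 or 2 was (highest 0.120), and that of Cd69 when adult replicate 3 or any infant library was (highest 0.139). The cytokine genes Ifng, Il10, Csf2 and Il6 were too low to test, with 0 to 10 counts in a library. Without infant replicate 2 the count of passing targets was 0, it was 1 without adult replicate 1 or 3 or infant replicate 1 or 3, and it was 5 with DESeq2.

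Immediate early genes, the class in which Btg2 and Zfp36 also stand, had 2 of 15 up and 1 down (median 0.0061). The shares over all tested genes were 1.52% up and 2.11% down. Nr4a1, a nuclear receptor induced by T cell receptor signals, rose from 68.1 ± 10.4 to 123 ± 11.9 CPM (log2 fold change 0.85 ± 0.14, adjusted p = 0.00394 by edgeR) under all 14 alternatives. Egr1, a zinc-finger factor, rose from 68.7 ± 7.03 to 111 ± 10.7 CPM (0.69 ± 0.14, adjusted p = 0.0116), and Junb, an AP-1 subunit, fell from 195 ± 20.9 to 139 ± 7.62 CPM (−0.49 ± 0.12, adjusted p = 0.0319). Btg2 had the sign of Junb and not that of Nr4a1 and Egr1, in a list with 8 log2 fold changes above 0 and 7 below. The call of Egr1 did not hold when adult replicate 1, infant replicate 1 or infant replicate 3 was left out (highest adjusted p 0.0800, edgeR), and that of Junb when any of the 6 libraries was, without the filter or with a replicate block (highest 0.199). The count of 3 was 1 without adult replicate 1 or infant replicate 1 or 3.

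**Figure D4:**
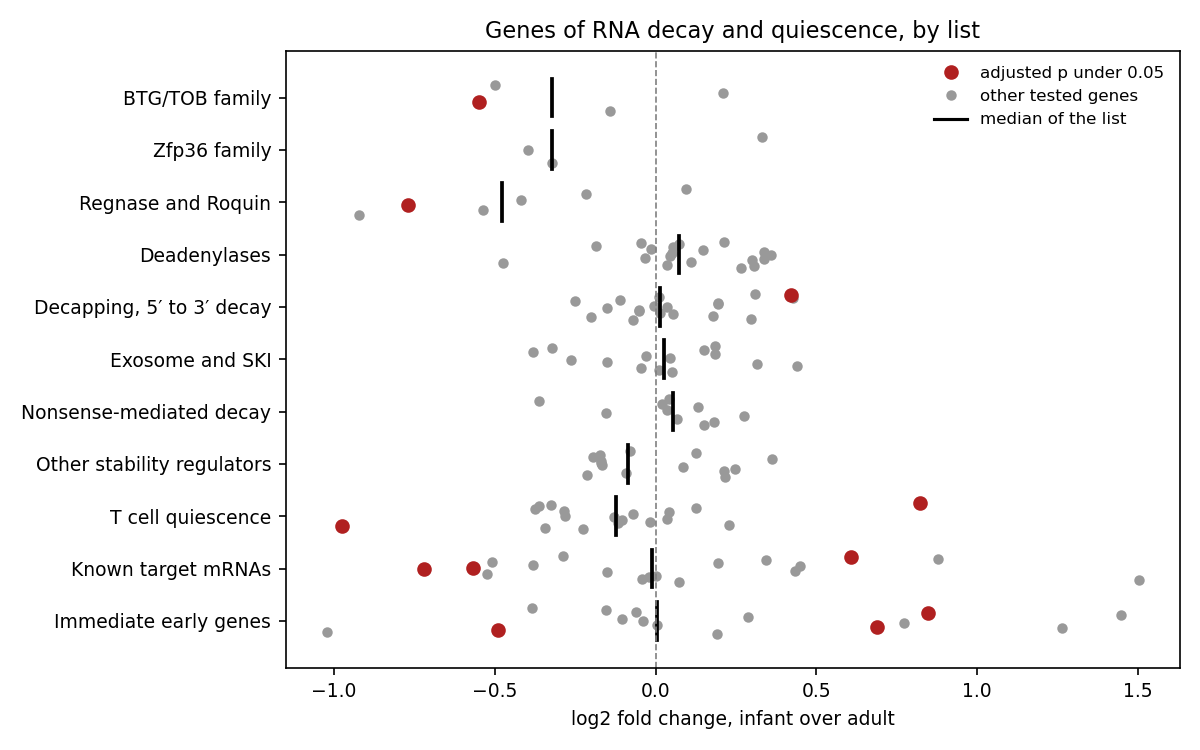
Log2 fold change (horizontal axis, infant over adult) of every tested gene in the 11 lists of RNA decay, quiescence, target and immediate early genes, with genes past the test in red, other genes in grey and the median of each list as a black line. The medians of the 3 families that hold the 10 regulators lie between −0.48 and −0.32, and those of the other 8 lists between −0.12 and 0.072. The 3 families hold only 4, 3 and 6 tested genes and the other lists 10 to 19, so these medians do not set the families apart.

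The 3 tested genes whose log2 CPM followed Btg2 most closely over the 6 libraries were Gle1, an mRNA export factor (Pearson r = 0.995), Mrps33, a mitochondrial ribosomal protein (r = 0.995), and Xkrx, a membrane protein (r = 0.994). These values are descriptive, since they were picked from all tested genes over 6 libraries that differ in age. Gle1 stood at 104, 100.3 and 91.4 CPM in adult replicates 1 to 3 and at 77.5, 65.8 and 70.3 CPM in infant replicates 1 to 3, and its log2 fold change of −0.47 ± 0.13 did not pass (adjusted p = 0.0670 by edgeR).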

How the data were processed

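The authors made the count table with STAR 2.5.4 and featureCounts on mm10, per the submitters' processing notes. It is deposited as raw counts for each gene symbol and each of the 6 libraries. Per the labels' protocols, cDNA primed with oligo(dT) went through PCR and transposase fragmentation before paired sequencing of 25 bases, a method that marks neither strand nor molecule, so PCR copies are counted.

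The test on these counts was run in edgeR 4.0.16 with R 4.3.3 (filterByExpr, minimum count 10 and minimum total 15, TMM, quasi-likelihood F test, Benjamini-Hochberg over 11681 genes). The SE is the absolute log2 fold change over the square root of F, and the 95% interval uses the fit's total degrees of freedom. Library ratios used log2 CPM with prior count 2. Alternatives were DESeq2 1.42.0, limma-voom (limma 3.58.1), other scalings and filters, a replicate block and leaving out each library. Exon lengths came from GENCODE release M21 (GRCm38). On simulated data for the 11681 genes, 200 of them changed, the test recovered 58% of 2-fold and 81% of 4-fold changes, with 6 false calls. The largest estimate among the 10 members was 1.89-fold, so these shares do not cover changes of their size. All 10 members were named, with up to 4 passing genes per list, or the 2 most abundant where none passed, the 3 genes most like Btg2, and, outside this rule, the tested and untested relatives of the families. Members and lists were chosen with earlier results of these data known. Same-numbered libraries were not paired. The p-values rest on the spread between libraries of 1 mouse each, in which mouse, sorting, PCR and counting are not separated.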

Additional observations from a re-analysis of the deposited data

How the results depend on the processing

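Among the 10 genes, Btg2 was called under 10 of 14 alternatives and the other 9 under 0. The count of called members was 0 without the filter on low counts, and 0 to 1 when 1 library was left out. Of the estimates that did not pass, Btg1 ran from −0.33 to 0.042 when 1 library was left out, above 0 without adult replicate 1, and Tob1 from −0.20 to 0.71, with −0.20 and −0.19 without adult replicate 3 and infant replicate 3. No other estimate of the 10 genes changed sign, and none did so with another scaling. The count over all genes was 425, and 139 to 488 when 1 library was left out, the highest value being that without adult replicate 2. Without the filter the median of all genes shifted to −0.84, with 39470 genes tested. Adult replicate 2 had a count for 36373 genes and the other libraries for 17992 to 21840. The part of that library in the shift was not tested. With a replicate block 326 genes and 1 member passed. The numbers did not pair the libraries, since the deviations of same-numbered libraries correlated at −0.047, −0.011 and −0.092 and no adult library correlated best with its own number. The cause of each lost call was not tested. Tob1 and Zc3h12a had the lowest counts of the 10 genes, 15 to 59 in a library, and the widest intervals, and counting error was not separated from the spread between mice.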
